A study of Homo sapiens with 12 samples.

Results

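Mitoferrin-1 (SLC25A37), the carrier that brings iron into mitochondria, was examined with 8 further genes of cellular iron handling in HEL cells, a human erythroleukaemia line, after knockdown of JAK2. The 9 genes were SLC25A37, SLC25A28, TFRC, TFR2, SLC11A2, FTH1, FTL, IREB2 and ACO1. SLC25A37 was chosen by its lower level in the JAK2 knockdown arrays, so its values against the controls are given as a description, with no test. The others were chosen by their role, with earlier results of these data known. Every probe set that the platform annotation gives to 1 of these genes alone was taken: 15 probe sets of 7 genes, out of 22406 probe sets and 11940 named genes. No probe set was given to FTH1 or IREB2 alone, and both are not analysed here.

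The cells carry the activating JAK2 mutation V617F on all copies, per the labels, and all 4 groups share that background and a lentiviral pLKO-puromycin vector. Jak2-9 and Jak2-10 cells received 1 of 2 independent hairpins against JAK2; Luc cells received a luciferase hairpin, and GFP cells a control that the labels name both a hairpin and a vector control. Each group had 3 one-colour Affymetrix arrays, made from 20 ng of total RNA by linear amplification. The labels number the replicates but say nothing of separate cultures; the p-values then reflect only how these arrays varied, possibly for technical reasons.

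Iron reaches an erythroid cell bound to transferrin, which the transferrin receptor (TFRC) takes into endosomes. There it is reduced and carried into the cytosol by DMT1, the product of SLC11A2. Mitoferrin-1 then moves it across the inner mitochondrial membrane, where it is built into haem and iron-sulphur clusters, while ferritin, made of heavy (FTH1) and light (FTL) subunits, stores the excess. The iron regulatory proteins, IRP1 (ACO1) and IRP2 (IREB2), bind hairpins called iron responsive elements when iron is scarce: they block translation of ferritin and protect the TFRC transcript from decay, and some SLC11A2 transcripts carry such an element in the 3′ untranslated region. Arrays measure transcript abundance, not translation or protein.

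Part of the element of FTL is shown because the element is the hairpin through which iron controls the storage member of the set. The stretch shown lies in the first 50 bases of the FTL transcript, within the 5′ untranslated region, at chr19:48965329-48965358 on the plus strand (GRCh38.p14, RefSeq). It ends at base 50, where the sequence window ends, so the far side of the stem is cut short. The capitals mark the unpaired C of the stem and the CAGTG that opens the loop:

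FTL: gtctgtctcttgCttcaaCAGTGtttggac

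The unpaired C is base 33 after the RefSeq start and the loop begins at base 39. The pattern searched was CNNNNNCAGTG, in the 50 bases after each start and on both strands. Of 10 windows available for 6 of the 9 genes, only this FTL window held it on the transcript strand, and none did on the other. Among all 35116 promoter windows, 1.71% held it on the transcript strand and 1.67% on the other, so the pattern alone does not mark an element. The windows hold no 3′ untranslated region, where the elements of TFRC and SLC11A2 lie. Genes without a window, and 5′ elements beyond the 50 bases, were not searched, so FTL need not be the only member with a 5′ element.

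Levels are log2 intensities, and a difference of log2 values is quoted with its standard error from 1 linear model over all 12 arrays (limma). A probe set was called when its Benjamini-Hochberg adjusted p over all 22406 probe sets was under 0.05. Median log2 intensity over the probe sets tested was 5.42 to 5.54 on the 12 arrays. JAK2 itself was at 63.1% of control at one of its probe sets (205842_s_at, log2 difference -0.67 ± 0.11, limma adjusted p = 0.00260) and at 60.1% at the other (205841_at, adjusted p = 0.0320, a call kept only without a Jak2-9 array). With Jak2-9 they were at 59.3% (limma adjusted p = 0.00569) and 56.0% (0.0412) of control. With Jak2-10 they were at 67.0% (limma adjusted p = 0.0556) and 64.5% (0.329), neither called, and no JAK2 difference between the hairpins was called (limma adjusted p 0.693 and 0.775). On Jak2-9 replicate 1, 592 probe sets lay over 2-fold away from the average of the remaining Jak2-9 arrays, against 0 to 36 on the other 11 arrays. The HEL markers were present: all 13 measured of 15 erythroid and megakaryocytic genes lay above the array median on every array, with summed linear intensity of 65555 to 71356 on control, 71726 to 76220 on Jak2-9 and 68422 to 71052 on Jak2-10 arrays. HBG1 and HBG2, with mean intensities of 26698 and 28110, made up most of these sums. Of other cell types, 1 of 6 lymphoid markers (CD2), 0 of 6 monocyte and granulocyte markers and 1 of 8 fibroblast and epithelial markers (KRT18) lay above the array median on every array. The summed fibroblast and epithelial markers ranged from 347 to 479 on Jak2-9 and from 291 to 351 on all other arrays. KRT18 was the brightest of them, at 118 to 296 over the arrays, and the next, COL1A1, reached at most 49.0. The array's Alu repeat control was 14.61 ± 0.07 in controls and 14.06 ± 0.10 in knockdown arrays (log2, SD, n = 6 each), without overlap. The part of these shifts in the results that follow was not tested. On bulk arrays, fewer cells of a type and less RNA per cell cannot be told apart.

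SLC25A37 was lower with both JAK2 hairpins. Its only probe set (221920_s_at) read 9.86, 9.80 and 9.66 on the GFP arrays and 9.79, 10.07 and 10.05 on the Luc arrays. With Jak2-9 it read 9.04, 9.31 and 9.35, and with Jak2-10 9.44, 9.39 and 9.29. Every knockdown array lay below every control array: the highest knockdown value was 9.44 and the lowest control value 9.66. The lowest array of all was Jak2-9 replicate 1, the array that stands apart.

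The mean SLC25A37 level was 9.87 ± 0.16 in controls and 9.30 ± 0.14 in knockdown (SD, n = 6 each), a log2 difference of -0.57 ± 0.08, or 67.5% of control. With Jak2-9 alone the level was 64.2% of control (-0.64 ± 0.10), and with Jak2-10 alone 71.0% (-0.49 ± 0.10). Both comparisons use the same 6 control arrays. Without Jak2-9 replicate 1 the Jak2-9 difference was -0.54 and the pooled one -0.52. Among all probe sets, 2.51% fell pooled and 2.13% had every knockdown array below every control array. For Jak2-9 those shares were 2.62% and 4.71%, and for Jak2-10 1.29% and 3.31%. SLC25A37 was chosen by this contrast, so nothing is read from its place among them.

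In order of their means, the SLC25A37 groups were Luc (9.97 ± 0.16), GFP (9.77 ± 0.10), Jak2-10 (9.38 ± 0.08) and Jak2-9 (9.23 ± 0.17; SD, n = 3 each). The members' choice did not use the differences between the controls or between the hairpins, and these were tested. Luc exceeded GFP by 0.19 ± 0.11 (95% interval -0.05 to 0.44, limma adjusted p = 1.00). Jak2-10 exceeded Jak2-9 by 0.14 ± 0.11 (95% interval -0.10 to 0.39, limma adjusted p = 0.657), and by 0.05 without Jak2-9 replicate 1. Neighbours at the top and at the bottom of the order therefore did not differ beyond their spread, while the intervals allow differences up to 0.44 and 0.39.

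**Figure D1:**
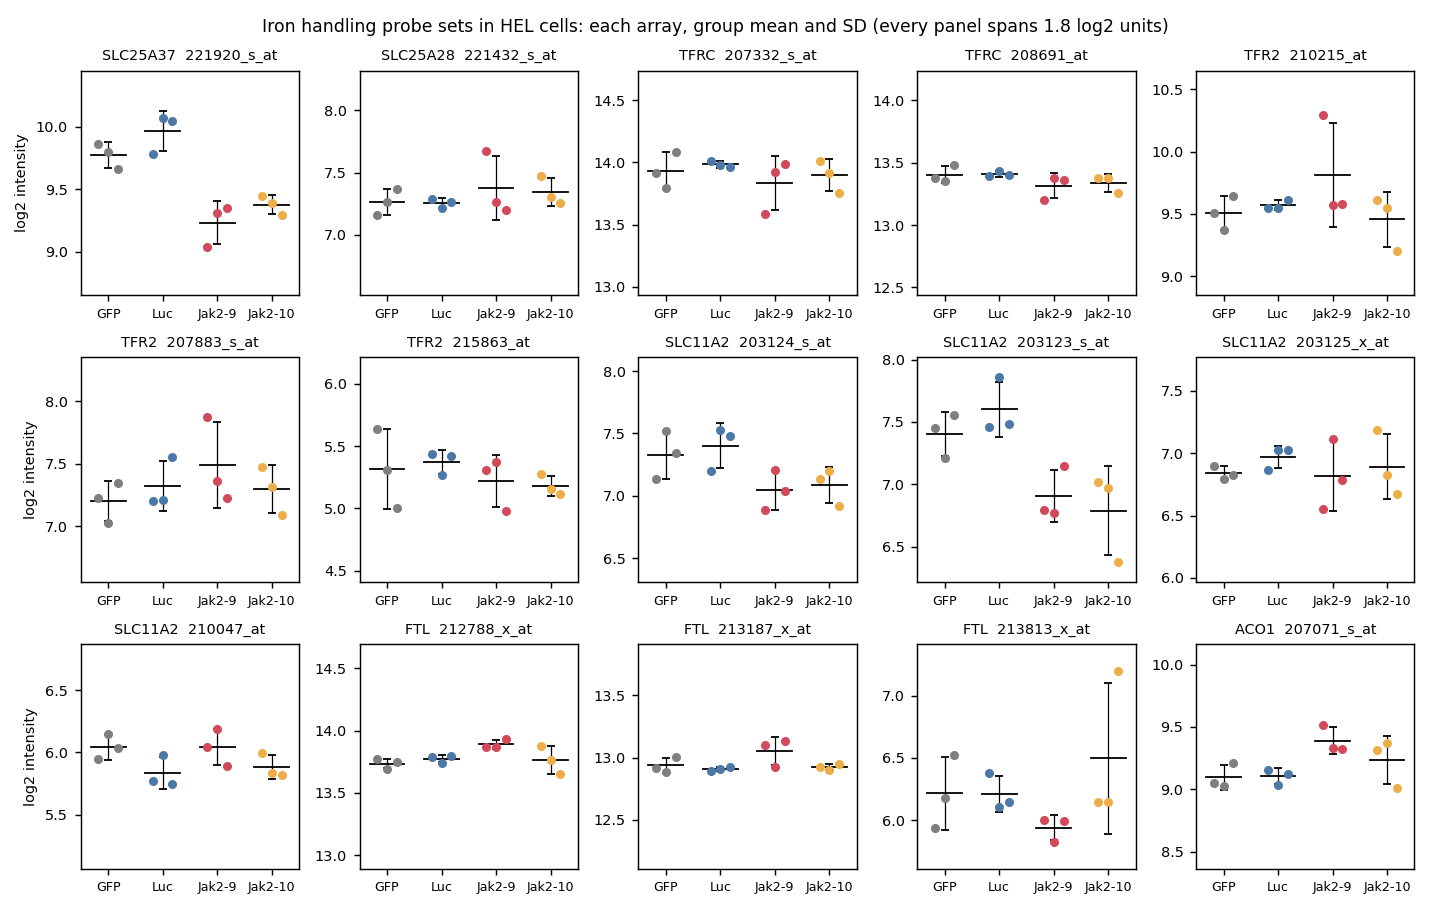
Log2 intensity of each iron handling probe set on the 12 arrays, by group (GFP, Luc, Jak2-9, Jak2-10); points are arrays, bars are group means and whiskers are SD (n = 3). For SLC25A37 and for SLC11A2 203123_s_at all 6 knockdown arrays lie below all 6 control arrays, while knockdown and control arrays overlap at the other probe sets.

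SLC25A28 encodes mitoferrin-2, the more widely expressed mitochondrial iron importer, and its probe set was not called. It (221432_s_at) read 7.16, 7.27 and 7.36 in GFP and 7.29, 7.22 and 7.27 in Luc cells. In knockdown cells it read 7.67, 7.27 and 7.20 with Jak2-9 and 7.47, 7.31 and 7.25 with Jak2-10. The groups overlapped. Jak2-9 replicate 1 was the highest array, and it and Jak2-10 replicate 1 lay above all controls. The pooled log2 difference was 0.10 ± 0.09 (95% interval -0.08 to 0.29, limma adjusted p = 0.598), and 0.03 without that array. The difference between the responses of the mitoferrins was not tested.

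Of the 14 probe sets other than that of SLC25A37, 1 was called in the pooled comparison, against 3.14% of all probe sets. At an unadjusted p under 0.05 there were 3 of 14, against 3579 of all 22406 probe sets. The median of the 14 differences was 0.02, beside 0.03 over all probe sets. Of the 14, 6 lay below 0 and 8 above, where 8869 of all probe sets lay below 0 and 13537 above. The probe set called was one of 4 for SLC11A2.

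SLC11A2 encodes DMT1, the transporter that moves iron out of endosomes. Its probe set 203123_s_at read 7.45, 7.21 and 7.55 on GFP arrays and 7.46, 7.86 and 7.48 on Luc arrays. It read 6.80, 6.77 and 7.15 with Jak2-9 and 7.02, 6.97 and 6.38 with Jak2-10. All 6 knockdown arrays lay below the controls, narrowly, with 7.15 the highest knockdown value and 7.21 the lowest control value.

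This SLC11A2 probe set fell to 63.5% of control, a log2 difference of -0.66 ± 0.12 (95% interval -0.92 to -0.39, limma adjusted p = 0.00722). It was called on leaving out any 1 of the 12 arrays (adjusted p 0.00466 to 0.0255), but not with GFP alone as control, where the difference was -0.56 and the adjusted p 0.129. With Jak2-9 it fell to 66.1% of control (limma adjusted p = 0.0412) and with Jak2-10 to 61.0% (limma adjusted p = 0.0292).

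The single hairpin calls were fragile. For Jak2-9 the call was kept only without Jak2-10 replicate 1, Jak2-10 replicate 3 or Jak2-9 replicate 3, and was lost without any other array, with adjusted p 0.0505 to 0.133, the highest without Jak2-9 replicate 1. For Jak2-10 it was lost without GFP replicate 1 or 3, Luc replicate 2 or 3, or Jak2-10 replicate 2 or 3, with adjusted p 0.0514 to 0.215. Jak2-10 and Jak2-9 differed by -0.12 ± 0.17 (95% interval -0.49 to 0.26, limma adjusted p = 0.827), a difference that changed sign, to 0.09, without Jak2-10 replicate 3.

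The other SLC11A2 probe sets did not pass the test. Probe set 203124_s_at read 7.13, 7.52 and 7.34 in GFP, 7.20, 7.53 and 7.48 in Luc, 6.89, 7.21 and 7.04 in Jak2-9 and 7.14, 7.20 and 6.92 in Jak2-10 cells, and the groups overlapped. Its difference was -0.30 ± 0.09 (limma unadjusted p = 0.00605, adjusted p = 0.118), in the same direction as the called probe set. Probe set 203125_x_at differed by -0.05 ± 0.10 (limma adjusted p = 0.847), and the dim 210047_at, at 5.75 to 6.19 on the 12 arrays, by 0.03 ± 0.08 (limma adjusted p = 0.888). The call therefore rests on 1 probe set of 4. With SLC11A2 represented by its brightest probe set or by the mean of its probe sets, no call was made. Missing the threshold does not show that the other probe sets of the gene were unchanged. Calls at only some probe sets of a gene were common on these arrays. Of 4507 genes with 2 or more probe sets, 247 had one that was called as fallen. In 221 of these (89.5%) only some were called, a count of calls that does not measure opposed directions.

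TFRC, the receptor for transferrin-bound iron, was not called at either of its probe sets. Probe set 207332_s_at read 13.92, 13.80 and 14.09 in GFP, 14.01, 13.97 and 13.96 in Luc, 13.58, 13.92 and 13.99 in Jak2-9 and 14.01, 13.91 and 13.76 in Jak2-10 cells. The lowest value was again that of Jak2-9 replicate 1, and the groups overlapped. Knockdown arrays were at 93.6% of control (log2 difference -0.09 ± 0.08, 95% interval -0.28 to 0.09, limma adjusted p = 0.617), or -0.03 without that array. The other TFRC probe set, 208691_at, lay between 13.20 and 13.48 on all 12 arrays and differed by -0.08 ± 0.06 (limma adjusted p = 0.572). The intervals leave room for a fall to 82.6% of control at the first and to 86.1% at the second.

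TFR2 encodes the second transferrin receptor, which takes part in iron sensing and associates with the erythropoietin receptor. Its brightest probe set, 210215_at, read 9.51, 9.37 and 9.64 in GFP and 9.55, 9.55 and 9.61 in Luc cells. It read 10.29, 9.57 and 9.58 with Jak2-9 and 9.61, 9.55 and 9.21 with Jak2-10. Single arrays stood out in both directions, Jak2-9 replicate 1 high and Jak2-10 replicate 3 low, while the other knockdown arrays lay among the controls.

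The pooled TFR2 difference at 210215_at was 0.10 ± 0.12 (limma adjusted p = 0.733). Against the controls Jak2-9 differed by 0.27 and Jak2-10 by -0.08, and the hairpins differed from each other by -0.36 ± 0.17 (95% interval -0.72 to 0.01, limma adjusted p = 0.572). Without Jak2-9 replicate 1 the Jak2-9 difference was 0.03 and that between hairpins -0.12. Probe set 207883_s_at, at 7.03 to 7.88, was also highest on Jak2-9 replicate 1 and differed by 0.13 ± 0.12 in the pooled comparison (limma adjusted p = 0.619). The dim 215863_at, at 4.98 to 5.64, differed by -0.15 ± 0.10 (limma adjusted p = 0.521).

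FTL, the ferritin light chain whose element is shown in part above, was measured by 3 probe sets. All carry the suffix _x_at, by which Affymetrix marks probes that can match other sequences, so signal from near copies of FTL cannot be told apart. Probe set 212788_x_at read 13.77, 13.69 and 13.74 in GFP, 13.79, 13.74 and 13.79 in Luc, 13.87, 13.87 and 13.93 in Jak2-9 and 13.88, 13.76 and 13.65 in Jak2-10 cells. The Jak2-9 arrays lay above all controls and the Jak2-10 arrays spanned them. Pooled, the difference was 0.07 ± 0.06 (95% interval -0.06 to 0.20, limma adjusted p = 0.605), and for Jak2-9 it was 0.13 ± 0.08 (limma adjusted p = 0.317).

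Probe set 213187_x_at of FTL gave a pooled difference of 0.07 ± 0.06 (limma adjusted p = 0.635) at levels of 12.88 to 13.13. The dim 213813_x_at gave 0.01 ± 0.16 (limma adjusted p = 0.992). One Jak2-10 array, replicate 3, read 7.19 there, where the other Jak2-10 arrays read 6.15 and the Jak2-9 arrays 5.83 to 6.0. The Jak2-10 arrays thus lay above the Jak2-9 arrays, which held for 3.69% of all probe sets, and differed from them by 0.55 ± 0.23 (limma adjusted p = 0.572).

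ACO1 encodes IRP1, which is a cytosolic aconitase when it carries an iron-sulphur cluster and binds iron responsive elements when it does not. Its probe set (207071_s_at) read 9.05, 9.03 and 9.21 in GFP and 9.16, 9.03 and 9.12 in Luc cells. It read 9.51, 9.33 and 9.33 with Jak2-9 and 9.31, 9.37 and 9.01 with Jak2-10. All Jak2-9 arrays lay above the controls, and 1 of the Jak2-10 arrays, replicate 3, lay below them.

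The pooled ACO1 difference was 0.21 ± 0.08, or 116% of control, with an unadjusted p of 0.0171 and a limma adjusted p of 0.194. For Jak2-9 it was 0.29 ± 0.10 (limma adjusted p = 0.10) and for Jak2-10 0.13 ± 0.10 (limma adjusted p = 0.934). Only with array weights did it pass, at 0.23 (limma adjusted p = 0.0407). ACO1 and FTL 212788_x_at were the 2 of 14 probe sets whose Jak2-9 arrays all lay above the controls, against 7.48% of all probe sets. The summed HEL markers, mostly HBG1 and HBG2, were also higher on the Jak2-9 arrays, as given above. Any link to ACO1 or FTL was not tested.

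**Figure D2:**
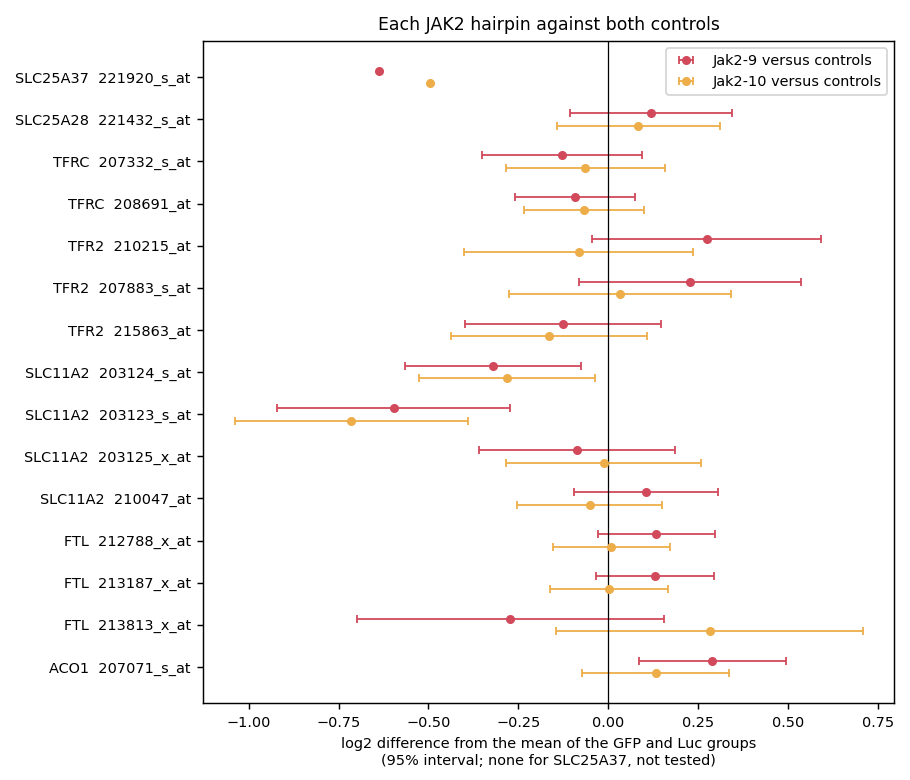
Log2 difference of each iron handling probe set from the controls, for Jak2-9 and for Jak2-10, with 95% intervals from the fit except for SLC25A37, which was not tested; both share the same 6 control arrays. SLC25A37 (-0.64 and -0.49, chosen by its lower level) and SLC11A2 203123_s_at (-0.60 and -0.71) lie farthest below 0; the intervals are not adjusted for the number of probe sets, and those of SLC11A2 203124_s_at also lie below 0 without a call.

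Each hairpin on its own called 1 of the 14 probe sets, the SLC11A2 one named above, where 4.27% of all probe sets were called for Jak2-9 and 1.37% for Jak2-10. Between Jak2-10 and Jak2-9, 0 of the 15 were called (limma; 1 at an unadjusted p under 0.05), where the whole table gave 0.00% called and 1919 probe sets at an unadjusted p under 0.05. Between Luc and GFP, 0 of the 15 were called (limma; 0 at an unadjusted p under 0.05), with 0.00% called over the table and 561 at an unadjusted p under 0.05. Between the hairpins, the 15 differences ran from -0.36 to 0.55, and between the controls from -0.21 to 0.20.

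Other genes of iron biology were gathered in 6 lists of 158 genes, of which 108 had a probe set of their own, 187 probe sets in all. In the pooled comparison 5 of these genes had a probe set that fell and 3 one that rose, 1 probe set each. Among all probe sets tested, 2.51% fell and 0.629% rose. The plot of the lists shows most of their probe sets close to 0.

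**Figure D3:**
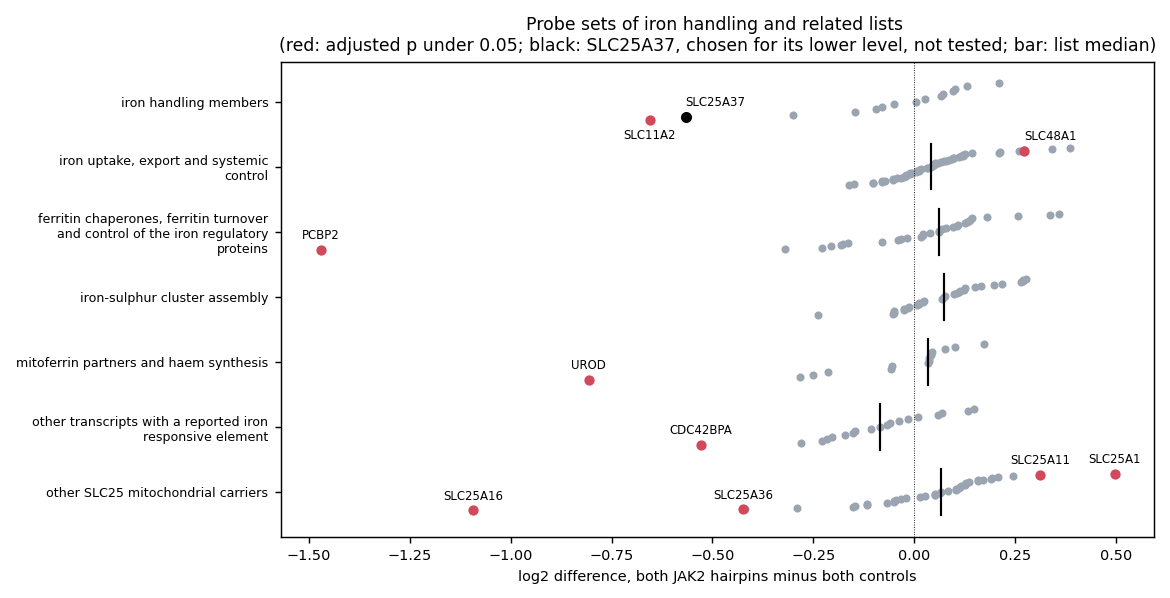
Log2 difference, both JAK2 hairpins minus both controls, for every probe set of the iron handling genes and of the 6 related lists; each point is a probe set and each bar a list median. Most lie between -0.3 and 0.3, and the 9 called probe sets (red, with SLC11A2) are each the only called one of their gene; SLC25A37 (black) was chosen by its lower level and not tested.

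Iron uptake, export and systemic control comprised 25 measured genes and 52 probe sets with a median of 0.04. None fell and 1 rose, SLC48A1 (HRG1, a haem transporter of the endosome and lysosome): 218417_s_at was 7.22 ± 0.12 in controls and 7.49 ± 0.10 in knockdown (SD, n = 6 each), a difference of 0.27 ± 0.07 (limma adjusted p = 0.0460). The call was kept on leaving out Jak2-9 replicate 1 and lost on leaving out any other array (adjusted p 0.0557 to 0.138). Its other probe sets differed by -0.07 and 0.12, neither called.

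Ferritin chaperones, ferritin turnover and control of the iron regulatory proteins comprised 18 measured genes and 31 probe sets with a median of 0.06. One fell, PCBP2 213517_at, for an RNA-binding protein that also delivers iron to ferritin. It went from 7.11 ± 0.42 to 5.64 ± 0.31 (SD, n = 6 each), or 36.1% of control (-1.47 ± 0.16, limma adjusted p = 8.25e-05), and its arrays did not overlap. The other 3 probe sets of PCBP2 differed by 0.06, 0.11 and 0.10, so the fall was not shared within the gene.

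Iron-sulphur cluster assembly, which uses the iron that mitoferrins import, comprised 21 measured genes and 31 probe sets. None was called. The median was 0.08 and 23 of 31 lay above 0, beside 0.03 and 13537 of 22406 over all probe sets. The lowest p-values belonged to NUBP1 (0.27 ± 0.08, limma adjusted p = 0.118) and CIAO2B (0.22 ± 0.07, limma adjusted p = 0.158), both of the cytosolic assembly machinery.

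Mitoferrin partners and haem synthesis comprised 9 measured genes and 14 probe sets with a median of 0.03. One fell, UROD 222074_at, for the cytosolic haem enzyme uroporphyrinogen decarboxylase. It went from 6.21 ± 0.35 to 5.40 ± 0.30 (SD, n = 6 each), or 57.2% of control (-0.81 ± 0.11, limma adjusted p = 5.18e-04), with overlapping arrays. The knockdown level was dim, near the array medians of 5.42 to 5.54. The controls also differed at this probe set, Luc minus GFP being 0.50 ± 0.16. Jak2-10 minus Jak2-9 was -0.45 ± 0.16, and neither of these differences was called. The other probe sets of UROD, 208970_s_at and 208971_at, both differed by 0.04.

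Other transcripts with a reported iron responsive element comprised 7 measured genes and 19 probe sets with a median of -0.08, where all probe sets had 0.03. One fell, CDC42BPA 215296_at, for a kinase whose transcript carries an element in its 3′ untranslated region. The probe set was dim, at 5.25 ± 0.21 in controls and 4.72 ± 0.11 in knockdown (SD, n = 6 each), a difference of -0.53 ± 0.08 (limma adjusted p = 0.00127). Its other 3 probe sets differed by -0.17, 0.07 and -0.15.

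Other mitochondrial carriers of the SLC25 family, to which both mitoferrins belong, comprised 28 measured genes and 40 probe sets with a median of 0.07. SLC25A16, a carrier linked to mitochondrial coenzyme A, fell at 210686_x_at from 8.27 ± 0.21 to 7.17 ± 0.32 (SD, n = 6 each). That was 46.9% of control (-1.09 ± 0.11, limma adjusted p = 2.81e-05). Its dim other probe sets differed by 0.10 and -0.05. The suffix _x_at marks probes that can match other sequences, so the signal may not come from SLC25A16 alone. SLC25A36, a pyrimidine nucleotide carrier, fell at 201919_at (-0.42 ± 0.10, limma adjusted p = 0.0269), and its other probe sets differed by -0.42 and -0.29, uncalled. SLC25A1, the citrate carrier, rose by 0.50 ± 0.12 (limma adjusted p = 0.0320), and SLC25A11, the oxoglutarate carrier, rose at 207088_s_at by 0.31 ± 0.08 (limma adjusted p = 0.0418). Of these, the SLC25A16 call was kept whichever array was left out, as were those of PCBP2, UROD and CDC42BPA. With each hairpin alone, 4 of the pooled calls passed for Jak2-9 and not for Jak2-10. SLC25A1 differed by 0.66 with Jak2-9 (limma adjusted p = 0.0197) and 0.34 with Jak2-10 (0.615). SLC25A11 differed by 0.46 (0.0138) and 0.16 (0.852), SLC25A36 201919_at by -0.55 (0.0185) and -0.30 (0.558), and SLC48A1 218417_s_at by 0.34 (0.0375) and 0.21 (0.561), in the same order. None of the 4 was called between the hairpins. The SLC25A36 call was kept only without a Jak2-9 array (otherwise adjusted p 0.0549 to 0.0736). That of SLC25A1 was lost on leaving out 7 of the 12 arrays (adjusted p 0.0581 to 0.102): GFP replicate 1 or 3, any Luc array, or Jak2-10 replicate 1 or 2. That of SLC25A11 was kept only without GFP replicate 3, Luc replicate 1 or Jak2-9 replicate 3 (otherwise 0.0512 to 0.130).

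The probe sets whose pattern over the 12 arrays was most like that of SLC25A37 were sought among 19414 others with 1 gene symbol. Likeness was the root mean square difference between log2 values, each centred on its own mean. Each gene named here stands for its nearest probe set only, and any other probe sets it has are not described. The nearest were FUBP1 (0.0792), a DNA-binding regulator of MYC, and CFDP1 (0.0893), a chromatin protein. SFPQ (0.0897), a splicing factor, ARGLU1 (0.0940), a splicing and transcription cofactor, NR2C1 (0.0963), an orphan nuclear receptor, and EIF5 (0.0970), a translation initiation factor, came next, where the median over all probe sets compared was 0.362. Their pooled differences were -0.49, -0.62, -0.59, -0.58, -0.55 and -0.53 in that order, beside -0.57 for SLC25A37. None of the 6 was among the iron genes listed. The profiles share the groups and the arrays, so the likeness is a description.

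**Figure D4:**
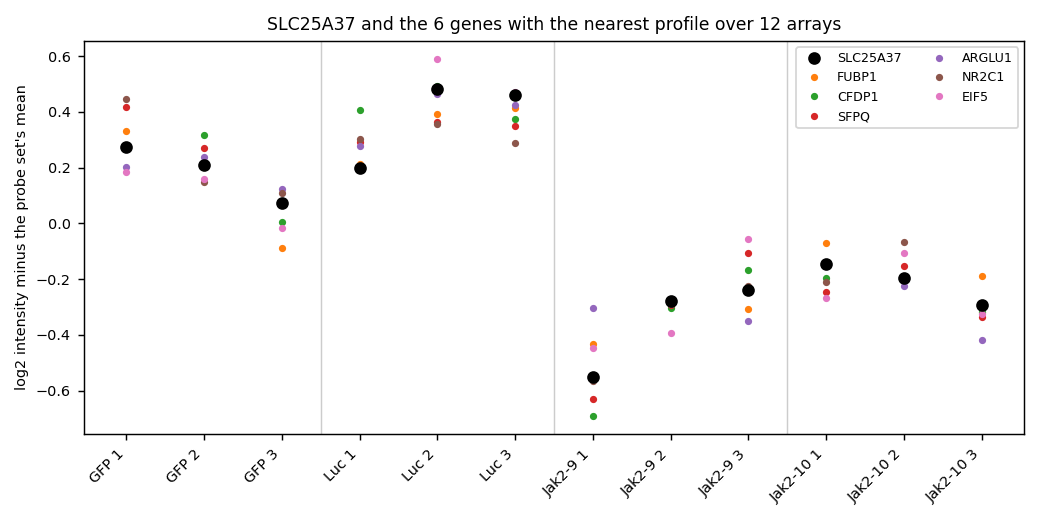
Log2 intensity centred on each probe set's own mean, over the 12 arrays in order of group and replicate, for SLC25A37 and the 6 probe sets nearest to it. Black points are SLC25A37 and coloured points the others. All 7 lie below 0 on the 6 knockdown arrays. The lowest value of SLC25A37 itself, -0.55, is on Jak2-9 replicate 1, where CFDP1, SFPQ and NR2C1 lie lower.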

How the data were processed

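The authors deposited linear-scale intensity values per probe set for 12 arrays, made by RMA (robust multi-array averaging), per the submitters' processing notes, with no version named there. RMA makes the arrays' distributions alike and compresses changes of dim probe sets. Log2 was taken with no pseudocount. The 524 control probe sets were left out. The platform annotation gives 1 gene symbol to 19415 of the other 22406 probe sets, several to 125 and, here, none to 2866.

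A model with 4 group means was fitted per probe set (limma 3.58.1, R 4.3.3, lmFit and eBayes), with Benjamini-Hochberg adjustment over all 22406, and was tested on simulated data. The model did not pair arrays by replicate number. Same-numbered arrays correlated weakly, as given below, which does not settle whether they were paired. The members and lists were chosen with earlier results of these data known. Named genes are all member probe sets, JAK2, up to 4 genes with a called probe set per list (or the 2 probe sets with the lowest p), and the 6 nearest profiles. No array coordinates are given, since the table names no genome build. Detection calls were not used here. Precision is limited by the number of arrays. Alternatives covered scaling, filters, the feature, the prior, weights, single controls, an added 16 and each array left out.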

Additional observations from a re-analysis of the deposited data

How the results depend on the processing

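The pooled SLC25A37 difference lay between -0.66 and -0.47 in the 23 alternatives, a description only. Its knockdown and control arrays did not overlap, so leaving out an array or a control could not reverse the direction. The replicate block, the dim filter, the prior and the choice of probe set left it at -0.57, since they cannot change the estimate of its only probe set. The 1 of 14 probe sets called in knockdown versus control became 0 with each gene by its brightest probe set, by the mean of its probe sets or with GFP alone as control, and 2 with array weights; it stayed 1 whichever array was left out. The 1 called for Jak2-9 and the 1 for Jak2-10 each became 0 with a replicate block, the brightest probe set, the mean, or 16 added to the intensity, and ranged from 0 to 1 over arrays left out. The 8 genes of the 6 lists with a call became 5 with the replicate block, 3 with the brightest probe set and 2 with the mean. They became 14 with array weights, 2 with GFP alone and 5 with Luc alone, and 4 to 9 over arrays left out. With the replicate block SLC11A2 203123_s_at had an adjusted p of 0.0157 pooled, 0.0544 for Jak2-9 and 0.0559 for Jak2-10. Same-numbered arrays correlated between -0.142 and 0.191, over 0.1 in 4 of 18 pairs. Over the whole table, the 704 called in knockdown versus control became 218 with the brightest probe set, 283 with the mean, 1209 with array weights and 277 with GFP alone. The 956 of Jak2-9 became 1436 with median centring (580 fell and 856 rose, against 588 and 368), 367, 507 and, with only the arrays compared, 593; it was 579 or 600 without GFP replicate 1 or 2, 564 without Luc replicate 2, and 490, 1447 or 2020 without Jak2-9 replicate 1, 2 or 3. The 308 of Jak2-10 became 82, 92 and, with array weights, 591; it was 174, 174 or 128 without Jak2-10 replicate 1, 2 or 3 and 491 without Jak2-9 replicate 1. The 0 of Luc versus GFP became at most 9, with array weights. Other member probe sets kept their side of the threshold in 1372 of 1373 values, the exception being ACO1 with array weights. Small differences that were not called could change sign. Dim probe sets near the array median may be background. The cause of these changes was not tested.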
